A study of Mus musculus with 2 samples.

Results

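The genes of the proteasome were read in ATAC-seq data of mouse liver, in which the Tn5 transposase marks open chromatin. The members are the table's distinct regions whose closest gene has a symbol beginning with *Psma* to *Psmg* and a number, which gave 93 of 69549 regions. They belonged to 43 gene symbols, of which 42 were proteasome genes and 1 was *Psmc3ip*, a meiotic recombination factor that is no subunit and was kept apart. A promoter region had its centre within 1000 bp of the transcription start site (TSS) that the authors give, and where a gene had several the one with the most reads was taken. This left 39 proteasome genes of 13163 genes with a promoter region, namely 15 of the core particle, 15 of the regulatory particle and 9 activators, inhibitors and assembly chaperones. The remaining 50 member regions lay farther away.

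The *Mettl3* flox/flox group comprised C57BL/6 mice at 8 weeks of age on normal chow, with loxP sites around exons 2 and 3 of *Mettl3*, the gene of an RNA m6A methyltransferase. The *Mettl3*-HKO group had the same floxed alleles, strain, age and diet and in addition carried Alb-Cre+/-, in which the albumin promoter drives the recombinase in hepatocytes, so the other cells of the liver keep the gene. Each group was 1 library pooled from 4 livers, the *Mettl3* flox/flox one serving as the control, so no test across mice could be made, and a gene is described as 2-fold lower or higher where the ratio of the libraries reached that size. The log2 ratios set *Mettl3*-HKO against the control in RPM, which are reads scaled to a common library size, and 1 read was added to each count and the authors' library totals were used. Their intervals are 95% Clopper-Pearson intervals and cover counting error only. Counts are given with the control first.

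The totals were 52826202 and 58038305 reads, of which 31.7% and 22.3% lay on regions. The median log2 ratio was −0.38 over all regions and −0.57 over all promoters, so most values are given also relative to that shift. All 8 hepatocyte marker genes had a promoter region, with a median log2 ratio of −0.56, and 7 of 8 were below 0, against 85.1% of all promoters. The highest was *Alb* at 480 and 533 counts, and the lowest was *Serpina1a* at 391 and 172, a ratio of −1.32. Of 8 endothelial markers, 7 had a promoter region (*Pecam1* had none), and all 7 were higher in the *Mettl3*-HKO library, from 3.03 to 7.01 RPM in sum with a median log2 ratio of 1.60. Of 8 macrophage markers, 2 had one, at 1.04 and 1.96 RPM in sum, as had 2 of 8 stellate cell markers, *Reln* at 690 and 132 counts and *Col1a1* at 37 and 43, and 5 of 8 cholangiocyte markers, at 15.8 and 12.1 RPM. No lymphocyte marker of 8 had one. The *Mettl3* promoter, which lies outside the deleted exons and does not check the genotype, had 566 and 392 counts, a log2 ratio of −0.66.

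The proteasome degrades proteins that carry a ubiquitin chain. Its core particle is a barrel of stacked rings, in which alpha subunits form the gate and beta subunits hold the proteolytic sites inside. The regulatory particle caps the barrel, where non-ATPase subunits bind and cleave off ubiquitin and a ring of ATPases unfolds the substrate, and under interferon, or in immune cells, the catalytic beta subunits are exchanged for those of the immunoproteasome, which favours peptides for antigen presentation.

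Promoter sequences are printed for genes whose region covers the start and whose log2 ratio, given below, was above (*Psma3*, *Psmb9*) or below (*Psmc5*, *Psmc6*) that of most members, beside *Psmb5*, the chymotrypsin-like catalytic subunit, as a core promoter near the middle. They are RefSeq sequences on GRCm38.p6 and run 5′ to 3′ on the gene's strand, from 250 bases before the annotated start to 30 bases from it on. Capitals mark the motifs, searched on both strands. TGACNNNGC is the core of the antioxidant response element, bound by NFE2L1 and NFE2L2, and GAAANNGAA that of the interferon-stimulated response element. The box that NF-Y binds was taken as CCAAT, and the GC box of the SP family of factors as GGGCGG. Factors of the ETS family were given the letters CCGGAAG, and YY1 was given the letters AAGATGGCG. The TATA box was searched for by the usual letters TATAAA. All 280 bases of each lay inside a region of the table. The windows were chr12:70974373-70974652 for *Psma3* and chr14:54617966-54618245 for *Psmb5*, the latter on the minus strand. That of *Psmb9* was chr17:34187301-34187580 on the minus strand, that of *Psmc5* chr11:106255935-106256214 and that of *Psmc6* chr14:45329574-45329853, the last pair on the plus strand like *Psma3*.
Psma3: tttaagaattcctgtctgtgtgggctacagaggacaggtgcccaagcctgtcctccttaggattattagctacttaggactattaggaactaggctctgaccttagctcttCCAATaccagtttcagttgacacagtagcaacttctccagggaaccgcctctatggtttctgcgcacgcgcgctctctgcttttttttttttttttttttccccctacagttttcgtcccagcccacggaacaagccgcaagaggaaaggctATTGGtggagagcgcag
Psmb5: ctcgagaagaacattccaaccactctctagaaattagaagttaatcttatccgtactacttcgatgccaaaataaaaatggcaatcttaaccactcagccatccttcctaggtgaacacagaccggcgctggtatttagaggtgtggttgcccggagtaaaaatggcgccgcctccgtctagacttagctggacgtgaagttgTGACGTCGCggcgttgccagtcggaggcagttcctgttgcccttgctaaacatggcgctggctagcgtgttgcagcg
Psmb9: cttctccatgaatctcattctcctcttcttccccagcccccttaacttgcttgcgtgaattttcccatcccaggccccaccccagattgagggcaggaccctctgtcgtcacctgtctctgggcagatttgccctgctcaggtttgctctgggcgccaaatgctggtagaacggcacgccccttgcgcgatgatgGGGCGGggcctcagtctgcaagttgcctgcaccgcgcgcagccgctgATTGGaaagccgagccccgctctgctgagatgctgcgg
Psmc5: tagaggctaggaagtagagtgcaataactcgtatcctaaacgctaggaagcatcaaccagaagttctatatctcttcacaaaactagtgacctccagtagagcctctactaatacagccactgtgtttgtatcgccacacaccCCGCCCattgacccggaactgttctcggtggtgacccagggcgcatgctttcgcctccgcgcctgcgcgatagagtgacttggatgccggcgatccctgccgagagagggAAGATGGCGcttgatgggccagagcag
Psmc6: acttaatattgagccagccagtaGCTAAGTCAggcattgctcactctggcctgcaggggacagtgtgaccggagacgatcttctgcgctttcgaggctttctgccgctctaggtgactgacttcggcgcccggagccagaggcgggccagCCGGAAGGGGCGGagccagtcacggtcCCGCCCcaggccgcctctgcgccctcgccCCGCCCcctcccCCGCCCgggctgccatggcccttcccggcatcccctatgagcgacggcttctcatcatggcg
With the annotated start as position 0, the *Psmb5* window held an antioxidant response element core from −47 to −39, and *Psmc6* held one on the other strand from −227 to −219. *Psmc6* also had an ETS site from −100 to −94 and 4 GC boxes. In *Psmc5* the YY1 letters lay from 3 to 11. *Psma3* had 2 CCAAT boxes, and *Psmb9*, which has a divergent partner in *Tap1*, had a CCAAT box and a GC box. No base belonged to more than 1 motif. A match says only that the letters are there.

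As a group, the proteasome promoters had the ratio of promoters in general. Their median log2 ratio was −0.57, the same to 2 decimals as over all promoters, and 38 of 39 were below 0, against 85.1% of all promoters. Only *Psmb8* was above 0. At least 2-fold lower were 2 of 39 (5.13%), *Psmb10* and *Psmc6*, against 15.9% of all promoters, and none was 2-fold higher, against 3.84%. The direction depends on the scaling, since 19 of 39 lay above the median of all promoters. The members had a median of 9.01 RPM in the control and 5.91 in the *Mettl3*-HKO library, and all promoters had 8.05 and 5.15 RPM. The median member stood at the 54.4th percentile of mean signal, so these are ordinary promoters in strength. A peak was called in both libraries at 37 of 39 (94.9%), against 87.1% of all promoters, and only in the *Mettl3* flox/flox library at *Psmb10* and *Psmg3*. The centre lay within 250 bp of the TSS in 33 of 39 (84.6%), against 72.1% of all promoters.

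**Figure D1:**
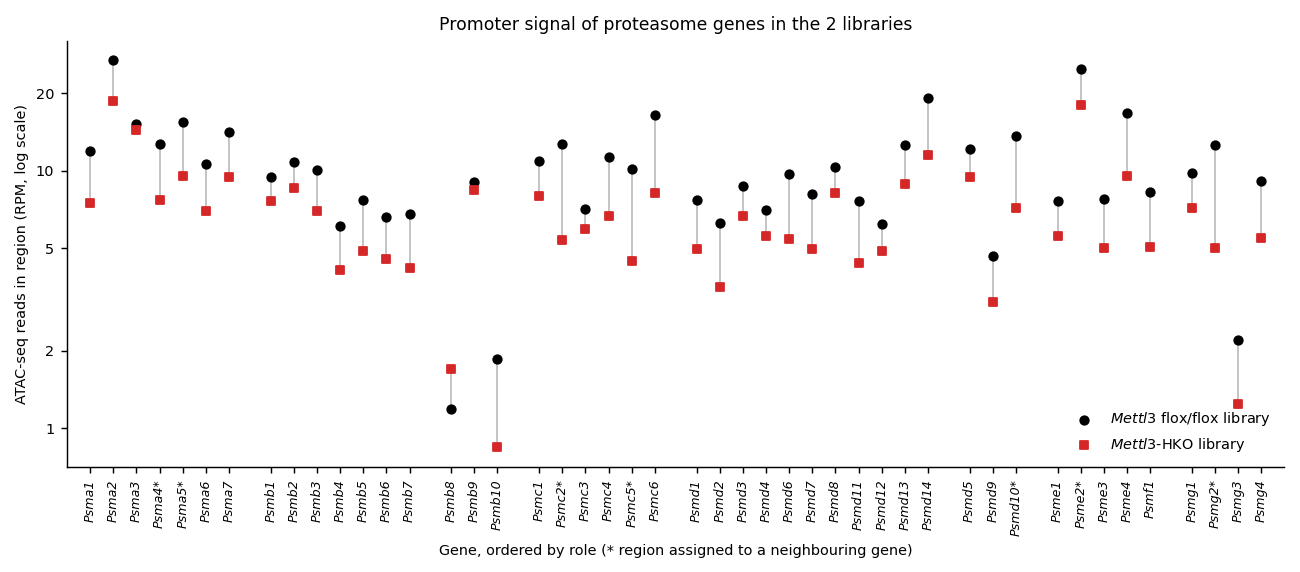
ATAC-seq signal at the promoter region of each proteasome gene in RPM on a log axis, with a black circle for the *Mettl3* flox/flox library and a red square for the *Mettl3*-HKO library, joined by a line. The genes are grouped by role and an asterisk marks a start that lies in a region assigned to a neighbour. *Psma2* is the strongest at 26.8 and 18.7 RPM, and *Psmb8* is the only gene with the red square on top.

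Because weak promoters had higher ratios in general, each member was set beside the 1000 promoters nearest to it in mean signal. The median difference was 0.045 on the log2 scale, and 21 members lay above and 18 below their neighbours' median. Inside the interquartile range of those neighbours were 25 of 39 (64.1%), against 49.8% of all promoters. Only *Psmb10* was at least 1.5-fold lower than its neighbours' median, against 11.8% of all promoters, and only *Psmb8* at least 1.5-fold higher, against 10.9%. The interquartile range of the log2 ratios was 0.34 for the members, 0.58 for all promoters and 0.46 for the 2123 promoters within the members' interquartile range of mean signal. The members were thus closer together than promoters of like strength, although no test of that spread was made. The interval lay wholly above the neighbours' median in 13 of 39 (33.3%), against 28.4% of all promoters, and wholly below it in 4 (10.3%), against 29.2%.

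**Figure D2:**
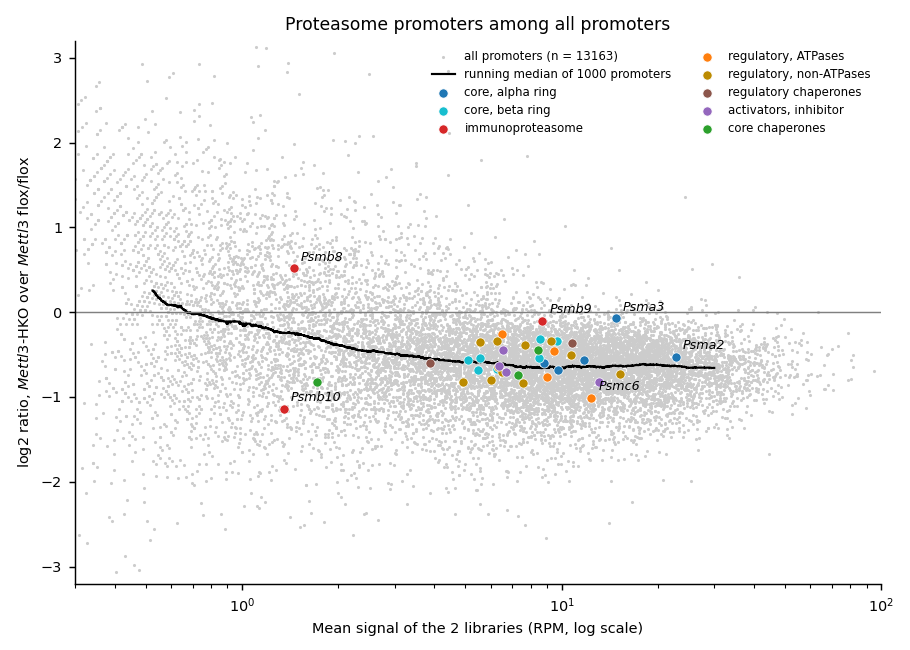
Log2 ratio of *Mettl3*-HKO to the control against mean signal in RPM on a log axis, with all 13163 promoters in grey, the 39 proteasome promoters in colour by role and a running median of 1000 promoters as a black line (41 promoters lie outside the axes). Most members follow the line, with *Psma3*, *Psmb9* and *Psmb8* above it and *Psmb10* and *Psmc6* below.

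In the alpha ring, 4 of 5 promoters were close to each other and *Psma3* stood apart. *Psma1*, *Psma2*, *Psma6* and *Psma7* ranged from −0.68 to −0.52, within 0.11 of their neighbours' medians. *Psma2*, the strongest promoter of the family, had 1417 control and 1082 *Mettl3*-HKO counts, at a log2 ratio of −0.52 (interval −0.64 to −0.41). Its region reached into intron 1 of *Mrpl32*, which starts on the opposite strand. *Psma1* had 631 and 432 counts, a ratio of −0.68 (interval −0.86 to −0.50).

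*Psma3*, an alpha subunit like the others, had 799 control and 836 *Mettl3*-HKO counts. The log2 ratio of −0.07 (interval −0.21 to 0.071) was 0.56 above the median of the 1000 nearest promoters and at their 97.5th percentile. The libraries were thus nearly level there, in a promoter deep enough that counting error is small. The region was on chromosome 12 from 70974331 to 70975283, from upstream of the gene into intron 1. It covers the start of the RefSeq window printed above. The RefSeq span of the gene begins farther upstream, at 70969283, inside another region of the table from 70968157 to 70969360, which was also nearly level with 541 and 549 counts, a ratio of −0.11 (interval −0.29 to 0.06).

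The 7 constitutive beta subunits all had a promoter region, with log2 ratios from −0.68 to −0.31. The non-catalytic *Psmb1* and *Psmb2* were the highest of them, with 498 and 441 counts at *Psmb1* (−0.31, interval −0.50 to −0.12) and 570 and 496 at *Psmb2* (−0.34, interval −0.51 to −0.16). Both lay above their neighbours' median, by 0.35 and 0.33. A second *Psmb3* region within the promoter limit, at −831 bp, had 406 and 216 counts, a ratio of −1.04 (interval −1.29 to −0.80). The stronger *Psmb3* region, the one taken, was at −0.54 and *Psmb4* at −0.56, near the median of all promoters.

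The subunits with the proteolytic sites were lower or near that median. *Psmb5* had 407 and 281 counts, for a log2 ratio of −0.67 (interval −0.90 to −0.45). *Psmb6*, the caspase-like subunit, had 348 and 262 counts, a ratio of −0.54 (interval −0.78 to −0.31). *Psmb7*, the trypsin-like subunit, had 356 and 243 counts, a ratio of −0.68 (interval −0.93 to −0.45). The intervals of all 3 overlapped one another and held the median of all promoters. The *Psmb6* region was centred at −915 bp from the authors' TSS, upstream of it, and reached the RefSeq start but not theirs.

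The immunoproteasome genes, whose products replace *Psmb5*, *Psmb6* and *Psmb7*, held the highest and the lowest ratio of the 39 promoters. *Psmb8*, which replaces *Psmb5*, had 62 control and 98 *Mettl3*-HKO counts, at a log2 ratio of 0.52 (interval 0.051 to 1.01). *Psmb9*, which replaces *Psmb6*, had 475 and 487 counts, a ratio of −0.10 (interval −0.29 to 0.086). *Psmb10*, which replaces *Psmb7*, had 97 and 48 counts, a ratio of −1.14 (interval −1.68 to −0.64). The highest, *Psmb8*, and the lowest, *Psmb10*, were both weak promoters. On their neighbours' scale *Psmb8* was 0.76 above the median, at the 83.3rd percentile, and *Psmb9* was 0.56 above, at the 95.5th percentile. *Psmb10* differed from its neighbours' median by −0.89, at the 11.6th percentile.

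Neither the *Psmb8* nor the *Psmb10* region reached an annotated start. The *Psmb8* region lay on chromosome 17 from 34197530 to 34197839, centred at −925 bp from the TSS, and a weaker one at −278 bp had 56 and 67 counts, a ratio of 0.12 (interval −0.41 to 0.66). The *Psmb10* region was 750 bp downstream of the TSS with no peak in the *Mettl3*-HKO library. A stronger *Psmb10* region, 1262 bp downstream and so just beyond the promoter limit, had 289 and 177 counts, a ratio of −0.84 (interval −1.12 to −0.57). Both *Psmb10* regions were thus lower in the *Mettl3*-HKO library, and both *Psmb8* regions were higher in ratio, the second within counting error. Immune and endothelial cells are known to express immunoproteasome genes. The endothelial markers given above moved in the direction of *Psmb8*, whereas *Psmb10* was lower and *Psmb9* nearly level. The part of such cells in these ratios was not tested, and more cells of a type cannot be told apart from more open chromatin per cell in bulk tissue.

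The *Psmb9* region, on chromosome 17 from 34187006 to 34188023, ends in exon 1 of *Tap1*, the peptide transporter of antigen presentation, and so overlaps the start of both genes. A weak region 488 bp into *Tap1* had 22 and 60 counts, a log2 ratio of 1.27, the highest of 7 antigen presentation genes with a promoter region of 8 listed. *Erap1*, a peptide trimming enzyme, was among the lowest at −0.70, and the next highest was *Irf1*, an interferon response factor, at −0.39. The median of the 7 was −0.48, with 6 of 7 below 0, against 85.1% of all promoters, and relative to promoters of like signal it was 0.096, with 4 above and 3 below.

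**Figure D3:**
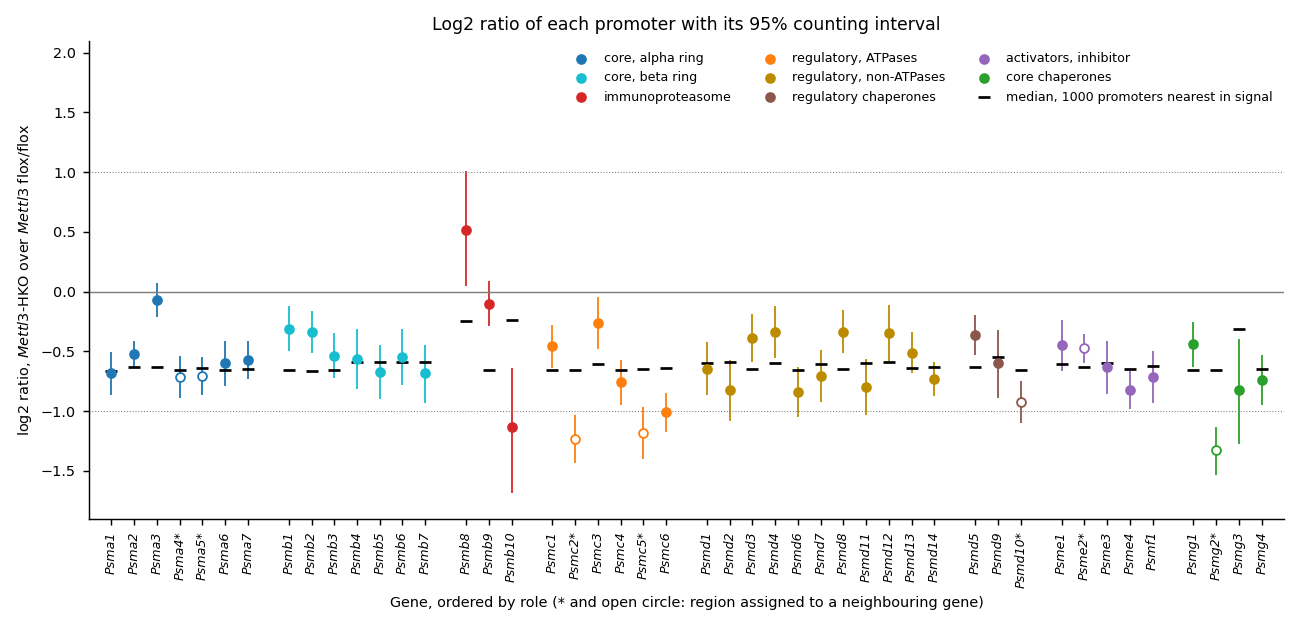
Log2 ratio of each proteasome promoter with its 95% counting interval, by role, with filled circles for regions assigned to the gene, open circles for starts in a neighbour's region and a black dash for the median of the 1000 promoters nearest in mean signal. Solid and dotted lines mark 0 and 2-fold. *Psmb8* lies above 0, *Psma3* and *Psmb9* reach it with their intervals, and *Psmc2*, *Psmc5*, *Psmc6*, *Psmb10* and *Psmg2* lie below the lower dotted line.

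In the regulatory particle the median log2 ratio was −0.64 over 15 promoters, and −0.54 over the 15 of the core particle. The difference of the medians was 0.099. Under the alternatives it lay between 0.032 with a promoter limit of 2000 bp and 0.14 with the starts in a neighbour's region added. Single promoters of the regulatory particle ranged from −1.01 to −0.26. Relative to promoters of like signal the medians were 0.075 for the core particle, with 11 of 15 above their neighbours, and −0.046 for the regulatory particle, with 7 of 15 above. With no replicate libraries, such a difference cannot be set against an error.

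The ATPases form the unfolding ring, and their 4 promoters held the highest and the lowest ratio of the regulatory particle. Their interquartile range of 0.41 was close to the 0.39 of the 11 non-ATPase promoters. *Psmc3* had 373 and 342 counts, for a log2 ratio of −0.26 (interval −0.48 to −0.045) and the highest of the regulatory particle. *Psmc1* had 577 and 462 counts, a ratio of −0.46, and *Psmc4* had 595 and 386, a ratio of −0.76. *Psmc6* had 871 control and 476 *Mettl3*-HKO counts, a ratio of −1.01 (interval −1.17 to −0.84). This was the lowest of the particle, and of the 39 promoters the only strong one that was 2-fold lower. *Psmc6* differed from its neighbours' median by −0.36, at the 14.6th percentile, and its interval did not overlap that of *Psmc3* or *Psmc1*. *Psmc6* was picked as the lowest, so this is description only. Its region, on chromosome 14 from 45329357 to 45330217, ran from upstream of the gene into intron 1.

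The other ATPases, *Psmc2* and *Psmc5*, were not counted above because the region over their start was assigned to a neighbour on the opposite strand. *Psmc5* shares its region with *Ftsj3*, an rRNA methyltransferase, with 535 and 259 counts, for a log2 ratio of −1.18 (interval −1.40 to −0.97). *Psmc2* has 2 RefSeq starts in regions assigned to *Dnajc2*, a ribosome-associated chaperone. The stronger had 667 and 312 counts, a ratio of −1.23 (interval −1.43 to −1.04), and the other 520 and 208, a ratio of −1.45 (interval −1.70 to −1.22). Taking the stronger, and with these starts added after their values were seen, 3 of 6 ATPase promoters were 2-fold lower, against 15.9% of all promoters, and the ratios of the ring ran from −1.23 to −0.26. Relative to promoters of like signal, none of the 6 was 1.5-fold lower and their median was −0.23, although *Psmc2* lay near that limit at −0.58 and its weaker start region was past it, at −0.83. In the alpha ring with its shared starts added, 0 of 7 were 2-fold lower on the authors' scale, with ratios from −0.72 to −0.07.

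The 11 non-ATPase promoters lay between −0.84 and −0.33, with a median of −0.64, and none was 2-fold apart. The lowest were *Psmd6*, a lid subunit, with 511 and 314 counts and −0.84 (interval −1.05 to −0.63), and *Psmd2*, a large scaffold subunit, with 331 and 205 counts and −0.82 (interval −1.09 to −0.57). The highest were *Psmd8*, a lid subunit, with 544 and 474 counts and −0.33 (interval −0.52 to −0.15), and *Psmd4*, a ubiquitin receptor, with 370 and 322 counts and −0.34 (interval −0.56 to −0.12). The intervals of *Psmd6* and *Psmd8* did not overlap. They were picked as the lowest and the highest of the 11, so this does not measure whether promoters of lid subunits differ. *Psmd14*, the deubiquitinase of the lid and one of the 3 strongest promoters together with *Psma2* and *Psma3*, had 1006 and 666 counts, a ratio of −0.73 (interval −0.87 to −0.59). Its partner *Psmd7* was at −0.70. The scaffold subunit *Psmd1* was at −0.64 and the lid subunits *Psmd3*, *Psmd11*, *Psmd12* and *Psmd13* at −0.39, −0.80, −0.35 and −0.51.

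The 9 genes outside the particles had log2 ratios from −0.82 to −0.36. Of the activators, *Psme1*, a subunit of an interferon-inducible cap, was at −0.45, the nuclear *Psme3* at −0.63 and *Psme4*, which acts on acetylated histones, at −0.82 with 885 and 550 counts. The inhibitor *Psmf1* was at −0.71. Among the chaperones that build the base of the regulatory particle, *Psmd5* was at −0.36 and *Psmd9* at −0.60. Those that build the core, *Psmg1*, *Psmg3* and *Psmg4*, were at −0.44, −0.82 and −0.74, and *Psmg3* was weak, with 115 and 71 counts. *Psmc3ip*, which only shares the symbol, was at −0.95 with 304 and 173 counts.

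In all, 7 proteasome genes had their start in a region that the table assigns to another gene. This set was drawn up after the values were seen. Besides *Psmc2* and *Psmc5*, it held the core chaperone *Psmg2* in a region of *Cep76*, with 662 and 289 counts, for a log2 ratio of −1.33 (interval −1.54 to −1.13). It also held *Psmd10*, a chaperone of the regulatory particle, in a region of *Atg4a*, with 717 and 416 counts, a ratio of −0.92 (interval −1.10 to −0.74). The alpha subunits *Psma4* and *Psma5* were at −0.72 and −0.70. *Psme2*, the partner of *Psme1*, was in a region of *Rnf31* with 1313 and 1038 counts, a ratio of −0.47 (interval −0.59 to −0.36). The median of the 7 was −0.92, and 6 of 7 lay below the median of promoters of like signal. With them, 5 of 46 promoters (10.9%) were 2-fold lower, still under the 15.9% of all promoters, and the median was −0.62. *Psma8* and *Psmb11*, known as testis and thymus forms, had no region over their start.

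The motif letters were counted in the RefSeq windows, from 250 bases before to 50 after the start, of 38 members, 6 of the 7 shared starts among them, and of 10401 genes whose window overlapped a promoter region. *Psmb1*, *Psmb2*, *Psmb7*, *Psmc3*, *Psmd3*, *Psmd7* and *Psmg2* were not included for want of a window, nor *Psmb10*, whose window overlapped none, so the lowest of the 39 and the lowest shared start are not in these counts. The ETS letters were more frequent in the members, with 14 of 38 member windows (36.8%) against 18.8% of the 10401 and 9.24% of all 27025 windows. The antioxidant response element core, through which NFE2L1 is known to induce proteasome genes, was found in 6 of 38 (15.8%), against 15.0% and 12.5%. These were *Psmb5*, *Psmb6*, *Psmc6*, *Psmd9*, *Psmd12* and *Psme4*. The interferon-stimulated response element core was found in 6 (15.8% against 6.61% and 8.52%), namely *Psmb3*, *Psmb4*, *Psmd4*, *Psmd9*, *Psme1* and *Psmg4*. GC boxes were found in 23 (60.5% against 67.1% and 36.4%) and CCAAT boxes in 12 (31.6% against 38.6% and 37.7%). The YY1 letters were found in 2 (5.26% against 3.34% and 1.54%) and TATA boxes in 4 (10.5% against 6.54% and 14.0%). The median GC content was 59.2% in the members and 62% in the 10401 windows.

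The log2 ratios of members with and without these letters overlapped. Each window was given the ratio of the region that overlaps it, which for *Psmb8* and *Psmc2* was the weaker of their regions. Relative to promoters of like signal, the median was −0.10 for the 14 with ETS letters, from −0.83 to 0.26, and 0.0045 for the 24 without, from −0.53 to 0.56. For the 6 with an antioxidant response element core it was −0.064, from −0.36 to 0.24. For the 12 with a CCAAT box it was 0.091, from −0.83 to 0.56, and for the 26 without −0.057, from −0.53 to 0.31. An opposite start within 1 kb was found for 7 of 38 (18.4%), against 25.5% of the 10401, and their median was 0.11, from −0.53 to 0.56. The 7 do not include *Psmc2*, *Psma4* or *Psma5*, whose starts lay in regions of opposite-strand genes. These were at −0.83, −0.063 and −0.063, so the median and range hold for the 7 only. In these 38 windows, no motif thus separated members by their ratio.

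Away from the promoters, 50 regions were closest to 26 of the proteasome genes, with a median log2 ratio of −0.41 against −0.27 over all 55162 such regions. The closest gene need not be the one a region acts on, as 16 of the 50 lay in another gene, 10 in the gene itself and 24 in none. The regions nearest the promoter limit were those of *Psmd8* at 1048 bp and *Psmf1* at 1136 bp, with 121 and 128 counts and 76 and 56 counts, whereas *Psmb6* and *Psmb8*, at −915 and −925 bp, were the farthest inside it. At least 2-fold higher were 8 of 50 (16%), against 15.6% of all such regions, and 2-fold lower were 6 (12%), against 18.8%. Both shares are near or under the background.

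The 8 higher regions were weak, with at most 48 control counts and 33 to 138 *Mettl3*-HKO counts, and 7 had no peak in the former. The highest was 15762 bp downstream of the *Psmg1* TSS, with 19 and 56 counts, for a log2 ratio of 1.38 (interval 0.65 to 2.26). The strongest was 44573 bp downstream of *Psma6* with 48 and 138 counts, a ratio of 1.37 (interval 0.90 to 1.89). Another, closest to *Psmb8* but within *Tap1*, had 19 and 53 counts, a ratio of 1.30 (interval 0.56 to 2.18), in the direction of the *Psmb8* promoter. Of the rest, 2 closest to *Psmg4* lay in introns of *Slc22a23*, with ratios of 1.35 and 1.24, and 1 closest to *Psmb4* lay in *Pogz*, at 1.22. Those of *Psmc2* and *Psmd14* lay in the genes themselves, at 1.14 and 1.12.

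Among the 6 lower regions was the strongest of the 50, an intronic region at −47090 bp from *Psma1* with 1085 and 533 counts, for a log2 ratio of −1.16 (interval −1.31 to −1.01). A region 27887 bp downstream of *Psma6* had 591 and 319 counts, a ratio of −1.02 (interval −1.23 to −0.83), and one beside it 89 and 39 counts, a ratio of −1.31. Regions around *Psma6* thus differed in direction over the stretch downstream of it. A pair upstream of *Psmg4* had ratios of −1.32 and −1.41, and the last, upstream of *Psmb4*, had 39 and 19 counts, a ratio of −1.14. Of the 50 regions, 30 had a peak in both libraries, against 56.1% of all such regions, 12 only in the *Mettl3*-HKO library, against 24.9%, and 8 only in the control, against 19.1%.

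**Figure D4:**
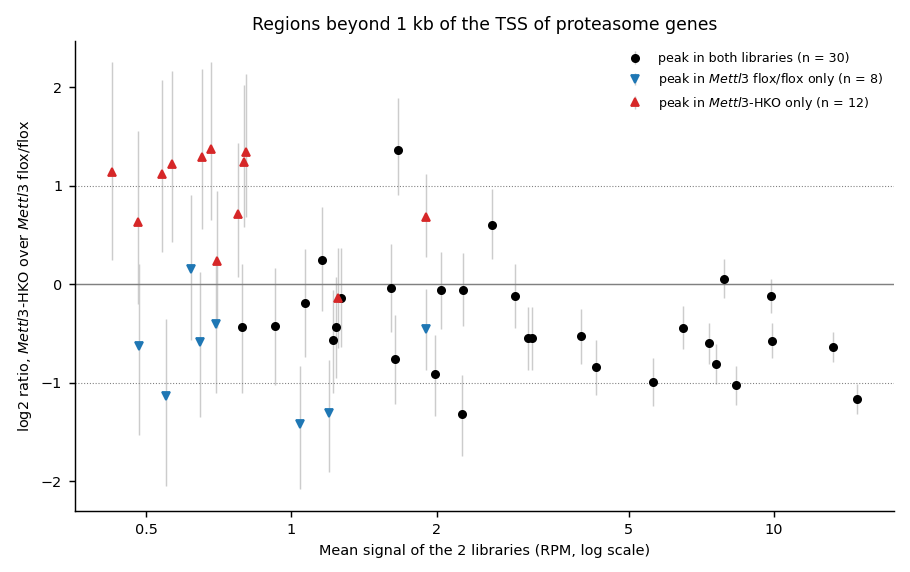
Log2 ratio with its 95% counting interval against mean signal in RPM on a log axis for the 50 regions more than 1000 bp from the TSS of a proteasome gene, with black circles for a peak in both libraries, blue triangles for *Mettl3* flox/flox only and red triangles for *Mettl3*-HKO only. Dotted lines mark 2-fold, and 7 of the 8 regions above the upper line are red triangles at the weak end.

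Genes that work with the proteasome but lie outside the symbol rule had the same median. Of 34 symbols listed, which include older names, 25 had a promoter region, with a median log2 ratio of −0.57, all below 0, against 85.1% of all promoters, and 2 of 25 (8.00%) at least 2-fold lower, against 15.9%. The lowest were *Ngly1*, a glycanase that processes NFE2L1, with 1319 and 670 counts and −1.11, and *Uchl5*, a deubiquitinase of the regulatory particle, with 2673 and 1465 counts and −1.0. Among the highest was *Zfand2a*, a stress-induced proteasome adaptor, with 411 and 417 counts and −0.11. *Nfe2l1*, the transcription factor known to raise proteasome gene expression when the proteasome is impaired, was at −0.48 with 1013 and 798 counts. The range of these genes was −1.11 to −0.11. Among the 39 proteasome promoters without the immunoproteasome it was −1.01 (*Psmc6*) to −0.07 (*Psma3*), and the shared starts reached down to −1.33 (*Psmg2*).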

How the data were processed

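ATAC-seq was analysed for 1 *Mettl3* flox/flox and 1 *Mettl3*-HKO liver library, grouped by the sample labels. Per the methods and the submitters' processing notes, the authors aligned reads to GRCm38 with BWA, kept properly paired reads with a mapping quality of at least 13, and called peaks with MACS2 with duplicates kept. How reads were counted on merged regions and whether a Tn5 offset was applied are not given in the sources used here. The authors deposited, per region, a raw count for each library, an RPM value (the count with 1 read added, scaled by the library total), a fold enrichment over the genome as a ratio, a log2 ratio of the libraries and how far the closest TSS lay. The authors' log2 column was not used. Counts with 1 read added, over totals recovered from RPM, gave the log2 ratios. Of 74821 rows, 5272 repeated a region and were left out. Gene symbols were given for 53.2% of 27433 genes. The median region had 85 and 81 counts. With 1 library per group no test was made.

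All members are given by name, with counts for the 3 highest and lowest of each particle, the 3 strongest, the immunoproteasome and those 2-fold apart. Regions away from promoters are named if strongest or 2-fold apart, and listed genes if among the 2 highest or lowest, of which some are not reported here. Other genes, the shared starts among them, were named after their values were seen. The members, lists and markers were chosen with earlier results of these data known. RefSeq promoter windows of the same assembly matched 39 member genes by symbol. Alternatives changed the centring, reads added, promoter window, value per gene, signal filter and fold. The scripts were tested on simulated data. Plots were made with matplotlib 3.10.9, and values computed in Python 3.11.15 with scipy 1.17.1, pandas 2.3.3 and numpy 2.4.6.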

Additional observations from a re-analysis of the deposited data

How the results depend on the processing

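The scaling sets the level of the log2 ratios. Centred on the median of all regions, the medians of all proteasome, core and regulatory particle promoters were −0.19, −0.17 and −0.27. Centred on all promoters they were −0.0011, 0.025 and −0.075, relative to promoters of like signal 0.045, 0.075 and −0.046, and scaled to the reads on regions −0.058, −0.032 and −0.13. The sign of the core median thus changed under 2 of these. The core minus regulatory difference stayed above 0, between 0.032 with a 2000 bp window and 0.14 with the shared starts. The 2 promoters that were 2-fold lower became 0 under each of those 4 scalings. They became 1 with 10 reads added, a window of 500 or 2000 bp, the upper 50% of signal or only regions that reach an annotated start, 5 with the shared starts, and 19 at 1.5-fold, which 48.2% of all promoters reached. The count of 2-fold higher promoters went from 0 to 1 when centred on all promoters or scaled to the reads on regions (*Psmb8* in both). With a 2000 bp window it also became 1, through a weak *Psmc2* region 1599 bp from the authors' TSS. That region had 13 and 33 counts, whereas the regions over the RefSeq starts of *Psmc2* were at −1.23 and −1.45. The shared starts, the scaling to reads on regions and the limit to regions that reach a start were chosen after seeing the data. Filling in missing symbols by Ensembl identifier was not run. With 1 pooled library per group, counting intervals are the only error given, and leaving out a replicate or pairing was not possible.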
